A study of Homo sapiens with 9 samples.

Results

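A431 p53 KO cells were compared with A431 Ctrl (mutp53) cells across all genes, with 3 RNA-Seq libraries of each and so 6 of the 9 libraries of the study. The libraries were chosen by their labels alone, and every gene counted entered the comparison. A431 cells derive from an epidermoid carcinoma and express a mutant p53 of their own. The p53 KO line was made by stable transfection with a CRISPR construct against p53, and the Ctrl line with the empty vector, so both lines had received a GFP CRISPR construct. The remaining 3 libraries came from A431 parental (mutp53) cells, and their values are given beside those of both lines. All cells were grown in DMEM with serum. The labels say that cells were grown as single colonies, so p53 status and the colony from which a line grew cannot be told apart here. Whether the libraries of a line came from separate colonies or cultures is not stated, and p-values therefore measure only the spread between these libraries, which may be technical.

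Wild-type p53 is a transcription factor that activates genes of growth arrest and cell death, and mutants such as that of A431 are largely unable to do so while the protein often accumulates. Mutant p53 can bind other transcription factors, p63 and p73 among them, and change their output. Interferon-stimulated genes, which recur below, are switched on by type I and III interferons through a transcription factor complex that binds a DNA element called the ISRE. Keratinocyte-derived cells such as A431 also secrete chemokines, matrix proteins and proteases, many of them controlled by NF-kB, TGF-beta and EGFR signalling.

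Library totals were 29840452, 26549391 and 20597162 counts in p53 KO replicates 1, 2 and 3 and 19783778, 28123063 and 25825413 in Ctrl replicates 1, 2 and 3. Between 20181 and 21346 genes had a count in a p53 KO library and between 19817 and 20790 in a Ctrl library. Ctrl replicate 1 stood somewhat apart, with a chi-square per gene of 39.4 and 51.8 against the other Ctrl libraries, while the other pairs within both lines lay between 5.78 and 14.9. Calls are therefore also given without it in the closing section. Mitochondrially encoded transcripts took 1.49, 2.08 and 1.29% of the counts in p53 KO and 1.17, 0.814 and 1.16% in Ctrl replicates 1, 2 and 3, so all p53 KO libraries lay above all Ctrl libraries. In parental libraries the share was 1.39, 2.70 and 1.59%, which overlapped the range of the p53 KO libraries.
Keratinocyte markers were present in both lines, with 14 of 15 tested. EGFR, amplified in A431, stood at 13725, 13743 and 13036 CPM (counts scaled to a common library size, normalised by TMM) in p53 KO and 8665, 10684 and 10998 CPM in Ctrl libraries, a log2 fold change of 0.42 (adjusted p = 0.00846; quasi-likelihood test of edgeR, Benjamini-Hochberg over all genes). KRT14, a marker of basal keratinocytes, had too few counts to be tested. Of 12 fibroblast, 12 leukocyte, 9 endothelial and 7 melanocyte markers, only 2, 3, 2 and 2 passed the filter on low counts. Their summed levels were 8.90 to 11.1 CPM in p53 KO and 6.63 to 8.11 CPM in Ctrl libraries for fibroblasts, and 1.94 to 2.95 and 1.27 to 2.04 CPM for leukocytes. The defining markers PTPRC, CD3E, COL3A1, DCN, KDR and TYR had 0 counts in all p53 KO and Ctrl libraries. LYZ and ERG were called increased and stayed at or under 1.34 and 1.14 CPM in p53 KO libraries. The increase of LYZ no longer passed without p53 KO replicate 1 (adjusted p = 0.0519 in edgeR).

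As these are bulk samples, fewer cells expressing a gene and less RNA per cell cannot be told apart in any value below. Of 19 p53 family members and regulators, 18 were tested. TP63, the family member that defines squamous epithelium, did not pass (log2 fold change 0.21, adjusted p = 0.391), and TP73 had too few counts to be tested. Of the 18, 1 increased and 4 decreased, and from 2 to 6 decreased when any 1 library was left out. Here and below, "increased by" and "decreased by" give log2 fold changes of p53 KO against Ctrl cells. The canonical targets of wild-type p53 did not move one way. Of 28 tested, 8 increased (28.6%, against 14.97% of all genes) and 4 decreased (14.3%, against 14.2%), with a median log2 fold change of -0.02. Outside the windows with shifted medians, described below, 4 of 22 increased and 3 decreased. PMAIP1, which encodes the pro-apoptotic protein NOXA, increased from 9.43, 11.4 and 10.9 CPM in Ctrl to 31.3, 30.6 and 28.3 CPM in p53 KO replicates. CDKN1A, the cell cycle inhibitor p21, increased by 1.01 (SE 0.14, adjusted p = 3.57e-04). In the other direction ZMAT3, an RNA-binding p53 target, decreased by 1.33 (SE 0.19, adjusted p = 3.50e-04). It lies in the window from 160 to 180 Mb of chromosome 3, where the median log2 fold change was -0.50. CYFIP2, a regulator of actin branching, had 17, 23 and 17 counts in Ctrl replicates and 1, 0 and 0 in p53 KO replicates, at least 6.39-fold lower.

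Across the 14513 genes that passed the filter on low counts, 316 were called increased in p53 KO cells (2.18%) and 161 decreased (1.11%), where a call needs an adjusted p of at most 0.05 and a log2 fold change above 1.5 or below -1.5. Without the limit on the fold change, 2172 genes increased (14.97%) and 2068 decreased (14.2%). The median over all genes tested was 0.01. These shares are the background for the gene groups below, in which "increased" and "decreased" mean an adjusted p of at most 0.05, and "called" means that the fold threshold was passed too. The 3 p53 KO libraries all lay above the 3 Ctrl libraries in 21.1% of all genes tested and all below them in 19.3%. Among called genes this held for all 316 that increased and for 160 of the 161 that decreased, the exception being SEC14L4. The calls were made on these same libraries, so this separation follows largely from the selection and is no further evidence. Protein-coding genes made up 259 of the increased and 121 of the decreased calls, and long non-coding RNAs 38 and 24.
By the medians of these genes, parental cells lay between both lines. The median log2 fold change of the genes called increased was 2.38 against Ctrl and 1.07 against parental cells, while the same genes stood at -1.43 in Ctrl against parental cells. For the genes called decreased the values were -2.28, -1.40 and 0.90. The genes were chosen on the first of these values, and the 3 comparisons share libraries, so the last 2 values describe where the parental libraries lie and test nothing.

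**Figure D1:**
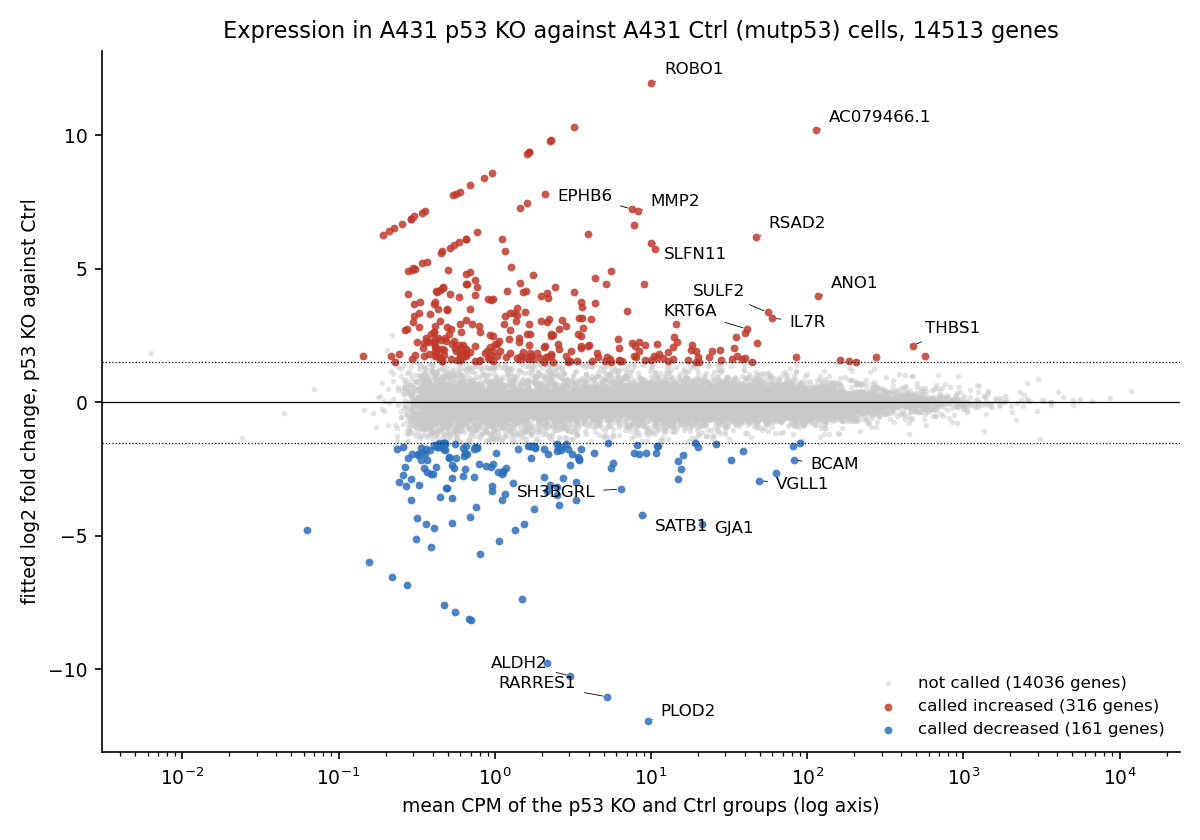
Fitted log2 fold change of p53 KO against Ctrl cells (y axis) against the mean CPM of both groups (x axis, log scale), with 1 point per gene for 14513 genes. Red points are the 316 genes called increased, blue points the 161 called decreased, and dotted lines mark 1.5 and -1.5. The points on slanting lines at the top and bottom left are genes at or near 0 counts in 1 group, whose fitted values depend on the prior count and are no measure of size.

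Genes were grouped into 49 lists by function. The lists were drawn up with earlier results of these libraries known, and some members were placed in them for their change, so a list's count is not independent evidence of its direction. Among the 41 lists with at least 10 tested members, the 8 with the highest shares of increased members were interferon-stimulated genes, the plasminogen system and serpins, mesenchymal transition markers, collagen chains, matrix proteases, HLA class I genes, NF-kB and TNF genes, and nucleic acid sensors. The highest shares of decreased members were found in epithelial transcription factors, keratins, and EGFR family receptors and ligands. In any list a member could pass the filter on low counts through the p53 KO or the Ctrl libraries alone. Its direction was then fixed in part by the filter. No test of a list as a whole was made.

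**Figure D2:**
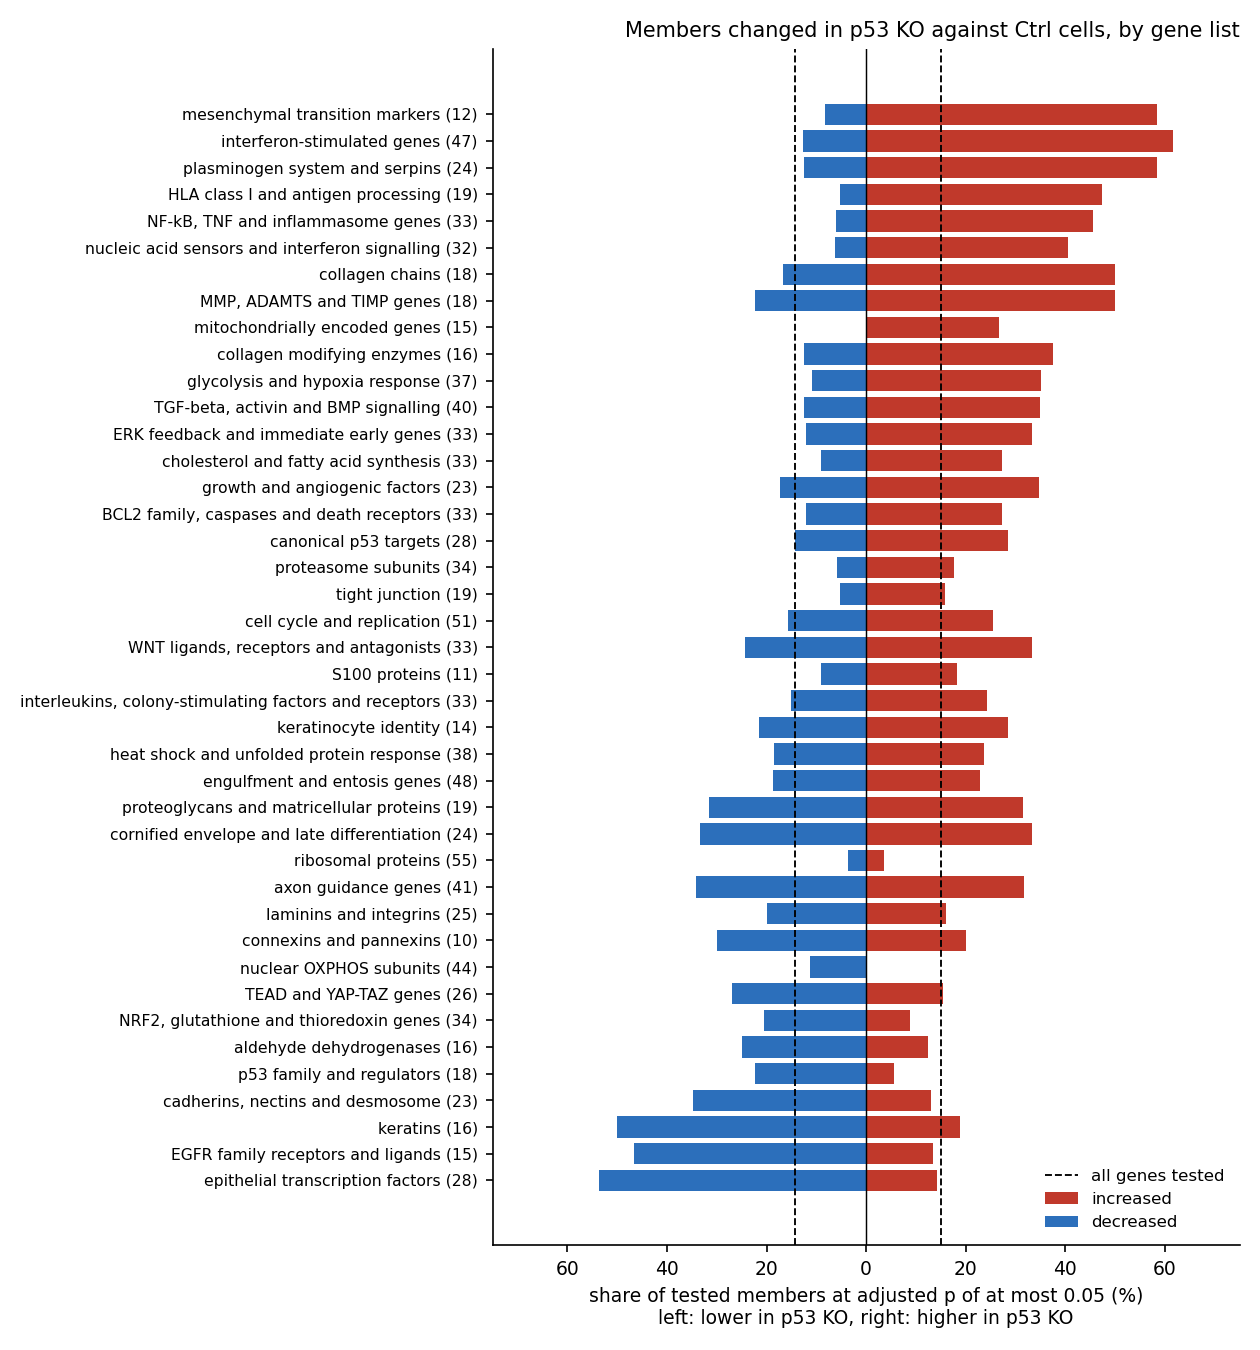
Share of the tested members of each gene list (y axis, number tested in brackets) that increased (red, right) or decreased (blue, left) in p53 KO against Ctrl cells at an adjusted p of at most 0.05, in percent (x axis), for the 41 lists with at least 10 members tested. Dashed lines give the shares over all genes tested, 14.97% and 14.2%, and 61.7% of the interferon-stimulated genes stand to the right against 53.6% of the epithelial transcription factors to the left.

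Most of the interferon-stimulated genes tested were higher in p53 KO cells. Of 47 interferon-stimulated genes tested, 29 increased (61.7%, against 14.97% of all genes) and 6 decreased (3 without Ctrl replicate 2 or without p53 KO replicate 3). Of the 29, 10 were called (21.3% of the list, against 2.18% of all genes). The median log2 fold change of the list was 0.66. RSAD2, the gene of the list with the largest change, encodes viperin, an antiviral enzyme that makes a chain-terminating nucleotide, and its neighbour CMPK2 encodes a nucleotide kinase of the same response.
Promoters from RefSeq (build GRCh38.p14, 250 bases before to 50 after the gene start) are printed for RSAD2, the leading gene of the list, and for the 4 called members in which the core of the ISRE was found, to show where the motif lies. CMPK2 and SLFN11, called members whose windows held 0 matches, are not printed, and 3 called members had no promoter in the table. The motif searched was GAAANNGAAA on both strands, its matches are in capitals, and the sequences read 5′ to 3′ on the strand of the gene.
RSAD2 (chr2:6865635-6865934, + strand): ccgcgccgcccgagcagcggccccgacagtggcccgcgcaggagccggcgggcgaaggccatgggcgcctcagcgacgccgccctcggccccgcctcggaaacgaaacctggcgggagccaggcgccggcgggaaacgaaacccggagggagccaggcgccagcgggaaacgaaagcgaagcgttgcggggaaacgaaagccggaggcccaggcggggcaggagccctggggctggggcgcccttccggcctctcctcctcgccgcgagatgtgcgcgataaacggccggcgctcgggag
IFIT3 (chr10:89327747-89328046, + strand): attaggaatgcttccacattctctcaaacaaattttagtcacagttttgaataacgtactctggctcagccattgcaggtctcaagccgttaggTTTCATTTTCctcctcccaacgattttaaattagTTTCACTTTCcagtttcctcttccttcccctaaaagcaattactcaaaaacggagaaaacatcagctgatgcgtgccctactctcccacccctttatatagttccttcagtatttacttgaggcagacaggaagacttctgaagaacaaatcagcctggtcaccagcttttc
IFI44L (chr1:78620198-78620497, + strand): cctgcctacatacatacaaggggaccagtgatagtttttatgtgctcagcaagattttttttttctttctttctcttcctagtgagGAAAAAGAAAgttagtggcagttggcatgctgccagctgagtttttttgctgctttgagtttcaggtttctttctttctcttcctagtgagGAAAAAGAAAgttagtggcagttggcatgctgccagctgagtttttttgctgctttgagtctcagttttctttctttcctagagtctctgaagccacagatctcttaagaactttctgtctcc
EPSTI1 (chr13:42992192-42992491, - strand): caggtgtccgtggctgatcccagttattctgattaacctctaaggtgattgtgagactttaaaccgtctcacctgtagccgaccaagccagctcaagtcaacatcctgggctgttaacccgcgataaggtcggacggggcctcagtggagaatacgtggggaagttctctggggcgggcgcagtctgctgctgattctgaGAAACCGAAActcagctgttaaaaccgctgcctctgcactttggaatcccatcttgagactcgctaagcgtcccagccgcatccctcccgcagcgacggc
GBP4 (chr1:89198893-89199192, - strand): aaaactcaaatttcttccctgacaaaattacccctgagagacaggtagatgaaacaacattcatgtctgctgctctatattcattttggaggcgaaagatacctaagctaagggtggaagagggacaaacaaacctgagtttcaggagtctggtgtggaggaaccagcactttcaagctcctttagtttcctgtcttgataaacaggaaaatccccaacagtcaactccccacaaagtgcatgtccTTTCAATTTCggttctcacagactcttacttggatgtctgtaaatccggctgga
IFIT3 and IFI44L held 2 matches each, EPSTI1 and GBP4 held 1, and the RSAD2 window held 0. No match says only that these letters do not occur in this window. The RSAD2 window holds GAAACGAAA, a closer spacing that the search did not count. It also lies within the span of CMPK2 (chr2:6840570-6866635), and any other start of RSAD2 was not searched. Whether RSAD2 has an ISRE is therefore not decided here. Of 37 tested list members with a promoter in the table, 26 held the motif, as did 3.65% of the 27305 promoters in the table. Among the 22 members that increased and had a promoter, 15 held it, and among the 15 that did not increase, 11 did, so the motif was found in both. Only 37 of the 47 members tested had a promoter, fewer than 80%, so the shares were not compared further.
RSAD2 had 99.5, 92.3 and 88.3 CPM in p53 KO replicates 1, 2 and 3 and 1.07, 1.65 and 0.991 CPM in Ctrl replicates, a log2 fold change of 6.21 (SE 0.15, adjusted p = 1.33e-09). Parental libraries, at 2.08 to 2.37 CPM, were near the Ctrl level. CMPK2 had 41, 26 and 30 counts in p53 KO replicates and at most 3 in any Ctrl library, and was at least 10.3-fold higher. Parental libraries also had at most 3 counts, so CMPK2 passed the filter through p53 KO libraries alone and its direction was fixed by it. In both genes every p53 KO library lay above every Ctrl library.
IFIT3, which restrains the translation of viral RNA together with the other IFIT proteins, had 441, 411 and 414 CPM in p53 KO and 126, 134 and 129 CPM in Ctrl replicates, with parental libraries at 128 to 141 CPM (log2 fold change 1.70, SE 0.07, adjusted p = 6.09e-08). OASL, which enhances RIG-I signalling, had 319, 284 and 310.3 CPM in p53 KO and 121, 102 and 93.7 CPM in Ctrl replicates. For OASL the parental libraries lay at 84.1 to 98.0 CPM, so in both genes the p53 KO libraries stood above the other 6.
OAS2, a sensor of double-stranded RNA, increased by 1.64, the guanylate-binding protein GBP4 by 2.21, EPSTI1 by 2.13 and IFI44L by 1.63, while MX2 was just past the fold threshold. SLFN11, a ribonuclease that sensitises cells to DNA-damaging drugs, followed another pattern. It had 21.0, 21.4 and 16.9 CPM in p53 KO, 0.102, 0.457 and 0.305 CPM in Ctrl and 16.7, 17.5 and 17.9 CPM in parental replicates, so Ctrl libraries were low and both others high (log2 fold change 5.98 against Ctrl and 0.19 against parental cells). The largest decrease in the list was that of PLSCR1 (-0.67), in a window of chromosome 3 with a median of -0.37. IFIT3 lies in the window from 80 to 100 Mb of chromosome 10, where the median gene was 0.56 higher on the log2 scale in p53 KO cells. Outside the windows with such shifts, described below, 24 of 34 list members increased, against 12.1% of all genes there.

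**Figure D3:**
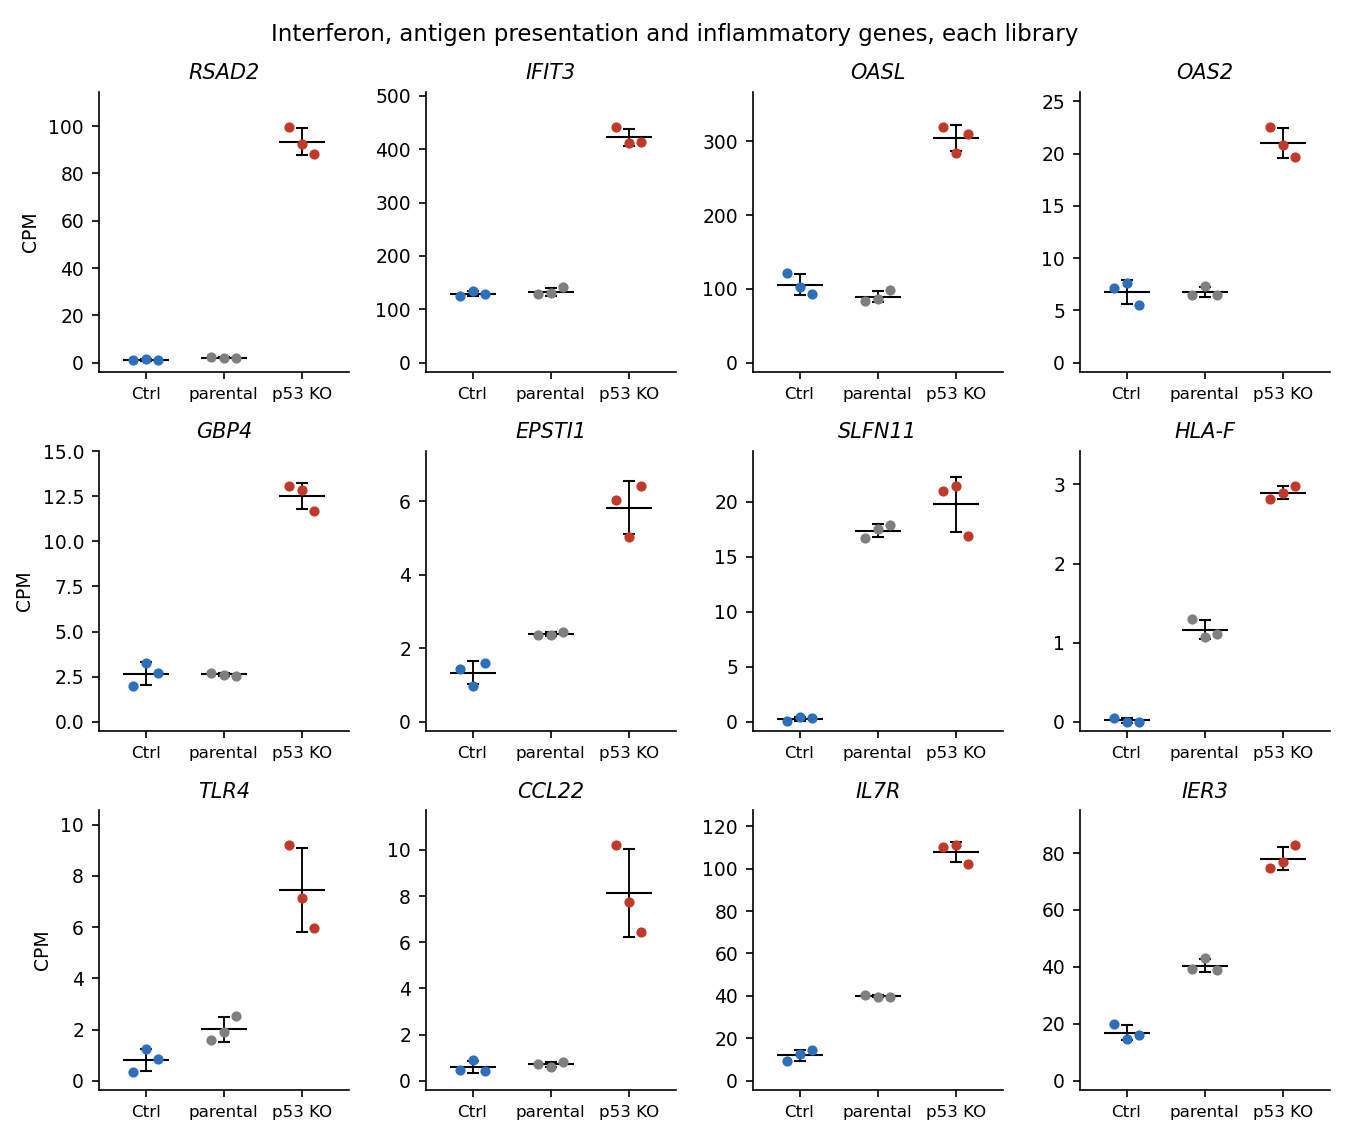
CPM (y axis) of 12 genes of the interferon response, antigen presentation and inflammation in each Ctrl (blue), parental (grey) and p53 KO (red) library, with the mean and SD of 3 libraries in black. RSAD2, IFIT3, OASL and CCL22 are near the Ctrl level in parental libraries, while SLFN11 is near the p53 KO level and IL7R lies between.

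Sensors and signalling parts of the interferon pathway, which act upstream of these genes, also held increased members. Of 32 tested, 13 increased (40.6%) and 2 decreased (4 without Ctrl replicate 1 and 1 without Ctrl replicate 2 or p53 KO replicate 1 or 2), with a median log2 fold change of 0.20. DDX58, which encodes the RNA sensor RIG-I, increased by 1.41 (SE 0.11, adjusted p = 6.65e-06), and DHX58, its regulator LGP2, by 0.88. TLR4, the receptor for bacterial lipopolysaccharide, was the only called member, at 9.19, 7.15 and 5.95 CPM in p53 KO and 0.357, 1.23 and 0.839 CPM in Ctrl replicates (log2 fold change 3.13). IRF5, a transcription factor downstream of Toll-like receptors, decreased by 1.02 and lies in a shifted window of chromosome 7 (median -0.46). IFNB1 and the type III interferon genes IFNL1, IFNL2 and IFNL3 had too few counts to be tested, with at most 3 counts in any p53 KO or Ctrl library.
Of 19 HLA class I and antigen processing genes, 9 increased (47.4%) and 1 decreased. HLA-B, a classical class I heavy chain, increased by 1.24 (SE 0.11, adjusted p = 1.26e-05) and NLRC5, the activator of class I transcription, by 1.24. HLA-F had 84, 76 and 60 counts in p53 KO and 1, 0 and 0 in Ctrl replicates 1, 2 and 3, at least 23.3-fold higher, against 34, 28 and 24 in parental libraries. HLA genes are near-identical in part, and how reads shared between them were counted is not stated, so single HLA values are uncertain.

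Most chemokines were low in both lines, and those detected were mostly higher in p53 KO cells. The summed level of those tested overlapped between the lines, at 59.7 to 69.8 CPM in p53 KO and 55.2 to 61.3 CPM in Ctrl libraries. Of 24 chemokines, 7 passed the filter on low counts, and 6 of these increased, 5 with a call (CCL22, CCL5, CCL28, CXCL8 and CXCL1). A gene could pass the filter through 1 line alone, so the count among these 7 says little of the other 17. CCL22, a ligand of CCR4 on regulatory T cells, had 10.2, 7.76 and 6.45 CPM in p53 KO and 0.459, 0.913 and 0.419 CPM in Ctrl replicates (log2 fold change 3.73, SE 0.27, adjusted p = 3.35e-06), with parental libraries at 0.615 to 0.830 CPM. The mucosal chemokine CCL28 increased by 3.02 and the T cell attractant CCL5 by 3.35. CXCL8 and CXCL1, which attract neutrophils, were low, with at most 34 and 15 counts in a p53 KO library.
Of 33 interleukins, colony-stimulating factors and receptors tested, 8 increased (24.2%) and 5 decreased (15.2%). IL7R, the interleukin 7 receptor chain, had 110.4, 111 and 102 CPM in p53 KO, 9.08, 12.7 and 14.3 CPM in Ctrl and 40.3, 39.5 and 39.5 CPM in parental replicates, so that parental libraries lay between both lines without overlap. CSF2, the growth factor GM-CSF, increased by 3.35 (SE 0.32, adjusted p = 2.96e-05) and IL32 by 2.30, both from under 1 CPM in Ctrl libraries.
NF-kB, TNF and inflammasome genes increased in 15 of 33 cases (45.5%) and decreased in 2 (5 without Ctrl replicate 3), and 8 were called increased. The called genes include feedback inhibitors and ligands. IER3, an early NF-kB and ERK target, had 74.8, 76.7 and 82.7 CPM in p53 KO and 19.8, 14.7 and 16.2 CPM in Ctrl replicates (log2 fold change 2.21, SE 0.11, adjusted p = 2.68e-07). TNFAIP3, which encodes the NF-kB inhibitor A20, had 12.3, 12.7 and 10.8 CPM in p53 KO and 2.29, 3.90 and 4.42 CPM in Ctrl replicates, and its parental libraries, at 9.31 to 12.6 CPM, overlapped those of p53 KO cells. PYCARD, the inflammasome adaptor ASC, increased by 3.14, the acute phase gene SAA1 by 2.03, the TNF family ligands TNFSF15 and TNFSF9 by 2.19 and 1.67, and the pore-forming gasdermin GSDMC by 3.23.

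Genes of the extracellular matrix and its proteases were higher in p53 KO than in Ctrl cells in most called cases. Of 32 collagen chains, 18 passed the filter on low counts, and 9 of these increased (50%), 3 decreased and 6 were called increased. A chain could pass the filter through 1 line alone, so these counts were in part fixed by it. Against parental cells the median of the 18 was 0.05 in p53 KO and -0.40 in Ctrl cells. COL17A1, the hemidesmosomal collagen XVII, had 275, 288 and 271 CPM in p53 KO and 86.3, 92.2 and 103 CPM in Ctrl replicates, with parental libraries at 95.7 to 107 CPM. It lies in the window from 100 to 120 Mb of chromosome 10, whose median was 0.53. COL18A1, a basement membrane collagen, increased by 3.41 (SE 0.13, adjusted p = 3.00e-08). COL6A2 had 120, 63 and 70 counts in p53 KO and 0 in all Ctrl libraries, at least 26.5-fold higher, and its partner chain COL6A1 increased by 1.67. COL8A1, at 0 counts in all Ctrl and all parental libraries, had 16, 20 and 9 counts in p53 KO replicates, at least 4.68-fold higher. It passed the filter through p53 KO libraries alone, so its direction was fixed by the filter.
In the group of matrix metalloproteases, ADAMTS proteases and their TIMP inhibitors, 9 of 18 increased (50%) and 4 decreased. Against parental cells the median of the 18 was -0.04 in p53 KO and -0.56 in Ctrl cells. By these medians the Ctrl line lay further from parental cells than the p53 KO line. The summed level of the 18 was lower in p53 KO, at 1224 to 1344 CPM against 1981 to 2303 CPM in Ctrl libraries. MMP2, a gelatinase that cleaves basement membrane collagen, had 15.6, 16.2 and 17.6 CPM in p53 KO, 0.204, 0.105 and 0.0381 CPM in Ctrl and 5.47, 5.19 and 5.91 CPM in parental replicates (log2 fold change 7.19 against Ctrl and 1.57 against parental cells). ADAMTS9 had 120, 90 and 45 counts in p53 KO and at most 1 in Ctrl libraries, at least 26.0-fold higher, while ADAMTS12 increased by 2.19. Of their inhibitors, TIMP1 increased by 1.12 and TIMP3 decreased by 1.08.
The plasminogen system and serpins, which control extracellular proteolysis, increased in 14 of 24 cases (58.3%) and decreased in 3 (5 without Ctrl replicate 1). Against parental cells their median was 0.37 in p53 KO and -0.24 in Ctrl cells. PLAT, tissue plasminogen activator, increased by 1.92 (SE 0.15, adjusted p = 7.32e-06), the thrombin receptor F2R by 2.39 and the serine protease PRSS23 by 1.76. SERPINB9, the inhibitor of granzyme B, had 4.13, 5.36 and 4.37 CPM in p53 KO, 0.0510, 0.281 and 0.305 CPM in Ctrl and 5.62, 5.69 and 5.35 CPM in parental replicates, so the Ctrl libraries were the ones that stood apart. SERPINF1, which encodes the anti-angiogenic factor PEDF, decreased by 2.47 and was the only called decrease.
Proteoglycans and matricellular genes split evenly, with 6 of 19 increased and 6 decreased. SULF2, a heparan sulphate sulphatase, had 102, 102 and 102 CPM in p53 KO, 9.99, 9.13 and 10.4 CPM in Ctrl and 53.8, 54.0 and 53.8 CPM in parental replicates (log2 fold change 3.37, SE 0.08, adjusted p = 1.08e-09). The 3 groups did not overlap. THBS1, thrombospondin 1, had 657, 857 and 809 CPM in p53 KO and 135, 169 and 225 CPM in Ctrl replicates. SPOCK1 increased by 2.62. CCDC80, a matrix protein, decreased from 118, 128 and 121 CPM in Ctrl to 41.9, 40.8 and 35.7 CPM in p53 KO replicates and lies in the window from 100 to 120 Mb of chromosome 3, whose median was -0.47. PLOD2, the lysyl hydroxylase that sets collagen crosslinks, had 283, 640 and 544 counts in Ctrl replicates and 0 in all p53 KO libraries, at least 159-fold lower. PLOD2 lies in the window from 140 to 160 Mb of chromosome 3, whose median was -0.37.

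**Figure D4:**
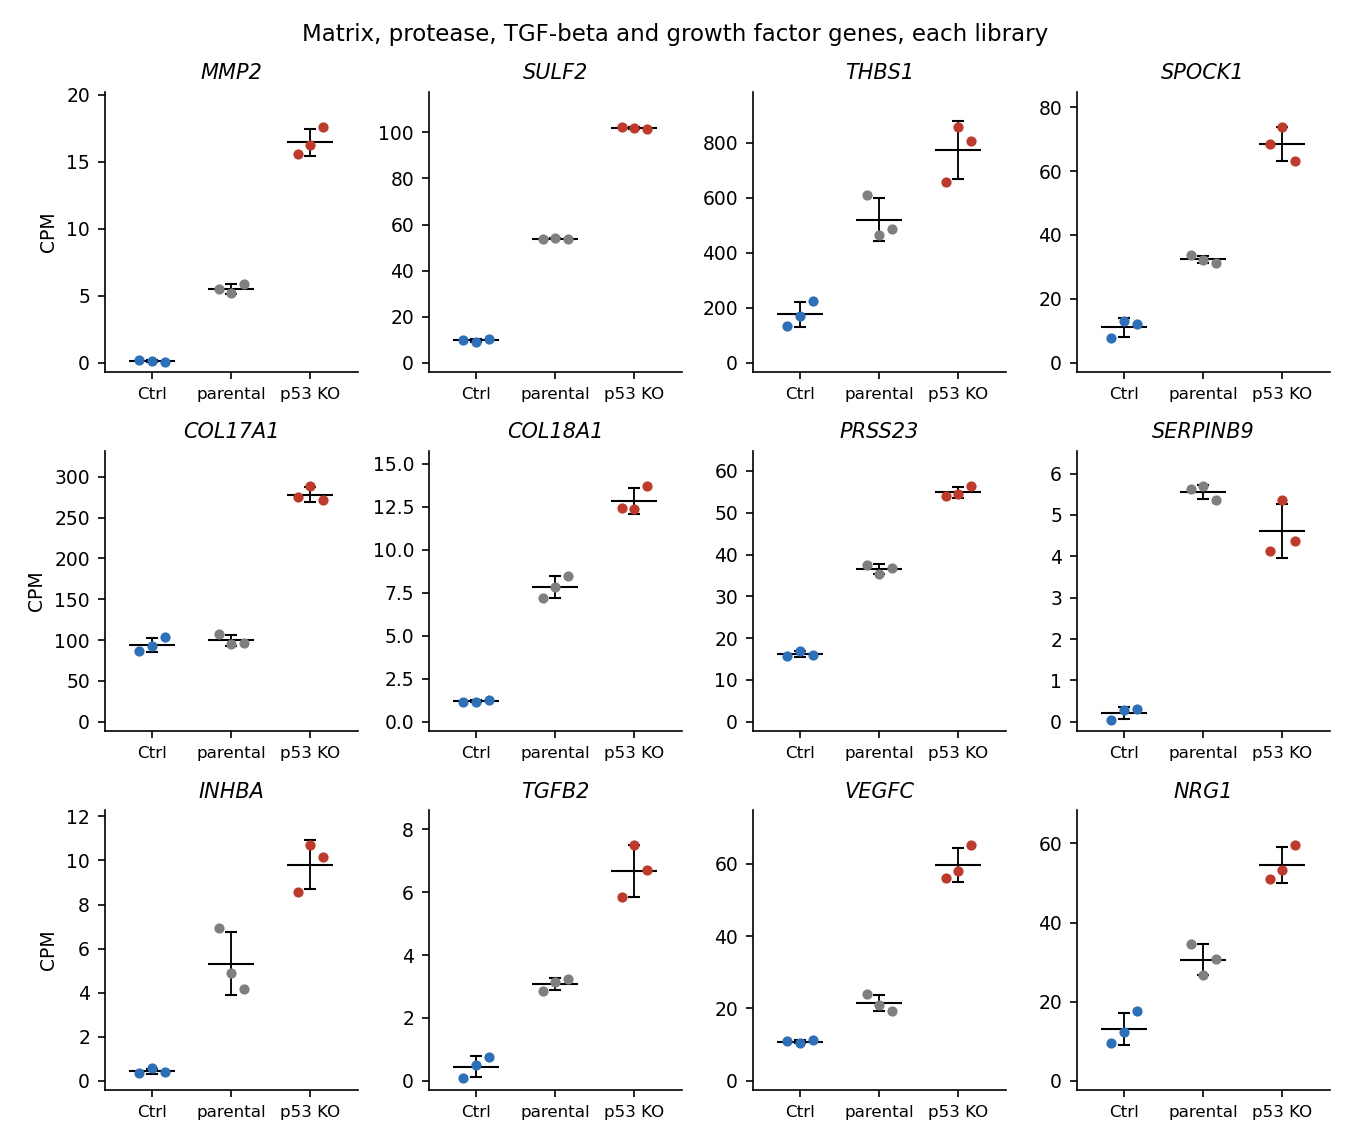
CPM (y axis) of 12 matrix, protease, TGF-beta and growth factor genes in each Ctrl (blue), parental (grey) and p53 KO (red) library, with the mean and SD of 3 libraries in black. Parental libraries lie between both lines for genes such as MMP2 and SULF2, while COL17A1 is at the Ctrl level in parental cells and SERPINB9 is low in Ctrl cells only.

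Ligands and feedback inhibitors of the TGF-beta family were among the genes with higher levels in p53 KO cells. Of 40 genes of TGF-beta, activin and BMP signalling, 14 increased (35.0%) and 5 decreased (3 without p53 KO replicate 1 or 2), and the 6 called members were all higher in p53 KO cells. INHBA, the activin A subunit, had 8.59, 10.7 and 10.2 CPM in p53 KO and 0.357, 0.562 and 0.381 CPM in Ctrl replicates (log2 fold change 4.45, SE 0.26, adjusted p = 8.39e-07). TGFB2, a TGF-beta ligand, increased by 3.78 and BMP6 by 2.95. The feedback inhibitors PMEPA1 and FSTL3, both known targets of the pathway, increased by 2.09 and 2.25. TGFBR3, the co-receptor betaglycan, decreased by 1.22. Of 12 mesenchymal transition markers, 7 increased (58.3%, and 4 members without Ctrl replicate 2, p53 KO replicate 2 or parental replicate 1 or 2) and FN1, fibronectin, decreased by 0.64. EMP3 increased by 2.92 and SNAI2, the transcription factor SLUG, by 0.92. VIM, vimentin, increased by 0.85 with an adjusted p of 0.0494 in edgeR, and its adjusted p was 0.0585 in the fit on the 6 libraries without parental cells and reached 0.152 without p53 KO replicate 2 or Ctrl replicate 2. CDH2, ZEB1, TWIST2 and SPARC had too few counts to be tested.
Among 33 WNT ligands, receptors and antagonists, 11 increased (33.3%) and 8 decreased (24.2%, and 5 members without p53 KO replicate 1), so members moved both ways. PORCN, the enzyme that acylates WNT ligands, increased from 6.12, 5.51 and 4.80 to 19.8, 20.04 and 21.0 CPM, and the receptors FZD1 and ROR2 increased by 1.71 and 2.57. PORCN lies in the window from 40 to 60 Mb of chromosome X, where the median gene was 0.84 higher in p53 KO cells, and FZD1 lies in a shifted window of chromosome 7 (median 0.45).
EGFR family ligands and receptors decreased in 7 of 15 cases (46.7%) and increased in 2. BTC, betacellulin, had 3.93, 5.76 and 5.57 CPM in Ctrl and 1.24, 0.913 and 0.843 CPM in p53 KO replicates, and EGF decreased by 1.45 and ERBB3 decreased by 0.88. NRG1, the ERBB3 ligand neuregulin 1, moved the other way, from 9.54, 12.4 and 17.5 to 51.0, 53.2 and 59.5 CPM, and lies in a shifted window of chromosome 8 (median 0.52). In the ERK feedback and immediate early group, 11 of 33 increased and 4 decreased (1 without p53 KO replicate 2). DUSP6, the ERK phosphatase, increased by 1.72 (SE 0.11, adjusted p = 1.25e-06) and ATF3 by 1.38, while EGR1 decreased from 129, 133 and 137 CPM in Ctrl to 52.7, 41.4 and 46.2 CPM in p53 KO replicates.
Secreted growth and angiogenic factors increased in 8 of 23 cases (34.8%) and decreased in 4, and 4 were called increased. Their summed level was lower in p53 KO, at 1370 to 1586 CPM against 1735 to 1944 CPM in Ctrl libraries. VEGFC, the lymphangiogenic factor, had 56.1, 58.0 and 65.1 CPM in p53 KO and 10.9, 10.5 and 11.2 CPM in Ctrl replicates (log2 fold change 2.46, SE 0.10, adjusted p = 7.01e-08). FGF2 increased by 1.59, and ANGPTL4, a lipase inhibitor induced by hypoxia and PPAR ligands, by 2.93 from at most 5 counts in Ctrl libraries.

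Among lists with at least 10 tested members, transcription factors of epithelial differentiation had the largest share of decreased members. Of 28 tested, 15 decreased (53.6%, against 14.2% of all genes) and 4 increased, 6 were called decreased (21.4%, against 1.11%), and the median log2 fold change was -0.43. Outside shifted windows 13 of 23 decreased. GRHL3, which drives barrier formation in the epidermis, had 26.5, 25.5 and 26.6 CPM in Ctrl and 3.12, 4.49 and 2.98 CPM in p53 KO replicates, with parental libraries at 13.7 to 15.2 CPM (log2 fold change -2.88, SE 0.14, adjusted p = 1.78e-07). ZNF750, a p63 target needed for terminal differentiation, decreased by 1.79. SATB1, a chromatin organiser downstream of p63, had 13.6, 17.6 and 18.7 CPM in Ctrl and 0.805, 1.26 and 0.595 CPM in p53 KO replicates. VGLL1, a partner of TEAD transcription factors, had 102, 86.8 and 73.2 CPM in Ctrl, 11.6, 10.04 and 12.8 CPM in p53 KO and 31.9, 29.5 and 31.2 CPM in parental replicates. The homeobox gene EN1 decreased by 3.48 and the Krüppel-like factor KLF8 decreased by 3.83. KLF8 lies in the window of chromosome X whose median was 0.84, in the opposite direction.
Keratins changed in 11 of 16 cases, with 8 decreased (50%) and 3 increased, all 3 of them called. Against parental cells their median was 0.23 in p53 KO and 0.44 in Ctrl cells, so both lines were above parental cells by this measure. KRT6A, the stress keratin of wounded epidermis, had 68.3, 69.1 and 77.7 CPM in p53 KO and 10.9, 9.80 and 11.2 CPM in Ctrl replicates (log2 fold change 2.75, SE 0.10, adjusted p = 2.39e-08). Its partner KRT16 increased by 1.69, and KRT6B had 65, 63 and 58 counts in p53 KO and 3, 1 and 1 in Ctrl replicates. KRT6A, KRT6B and KRT6C are near-identical copies, so the share of reads that each received is uncertain. KRT13, of non-cornified squamous epithelium, and KRT15, of basal cells, decreased with log2 fold changes of -1.38 and -1.20 and were not called. KRT15 stood at 41.5 to 48.5 CPM in parental libraries, below both lines, and was 0.77 higher in p53 KO than in parental cells (log2).
Late differentiation genes were split, with 8 of 24 increased (33.3%) and 8 decreased (33.3%). CALML3, a calmodulin-like protein of keratinocytes, decreased from 136, 101 and 88.1 CPM in Ctrl to 18.2, 15.5 and 18.7 CPM in p53 KO replicates. It lies in a shifted window of chromosome 10 (median -0.31). The protease inhibitor CST6 decreased by 1.64. CASP14, the caspase of the cornified layer, increased from 6.42, 7.38 and 6.25 to 36.7, 27.1 and 25.8 CPM and stood at 1.11 to 1.25 CPM in parental libraries, so both lines were above parental cells. SPINK5, a kallikrein inhibitor, was at least 11.4-fold higher.
Cell adhesion genes of the cadherin, nectin and desmosome group decreased in 8 of 23 cases (34.8%) and increased in 3. NECTIN3 had 3.16, 4.60 and 4.35 CPM in Ctrl, 0.268, 0.685 and 0.496 CPM in p53 KO and 0.995, 1.08 and 0.692 CPM in parental replicates, and PCDH18, a protocadherin, decreased by 3.90. GJA1, which encodes the gap junction protein connexin 43, had 34.8, 39.97 and 46.9 CPM in Ctrl and 1.58, 2.13 and 1.39 CPM in p53 KO replicates, with parental libraries at 9.09 to 9.77 CPM (log2 fold change -4.56, SE 0.16, adjusted p = 2.39e-08). It lies in a window of chromosome 6 with a median of 0.38, in the opposite direction. Of 19 tight junction genes, 3 increased (15.8%) and 1 decreased (5.26%), shares near or below those of all genes. Without p53 KO replicate 1 the increased members were 1, and without Ctrl replicate 1 the decreased were 4. Of 14 CEACAM and PSG adhesion genes, 4 passed the filter, some of them only through the p53 KO libraries, so their direction was in part fixed by the filter. CEACAM5 was at 4.60, 2.74 and 2.88 CPM in p53 KO and 0.153, 0.141 and 0.0763 CPM in Ctrl replicates, and CEACAM6 was at least 18.6-fold higher. CEACAM genes share sequence, so reads could have been split between them.

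**Figure D5:**
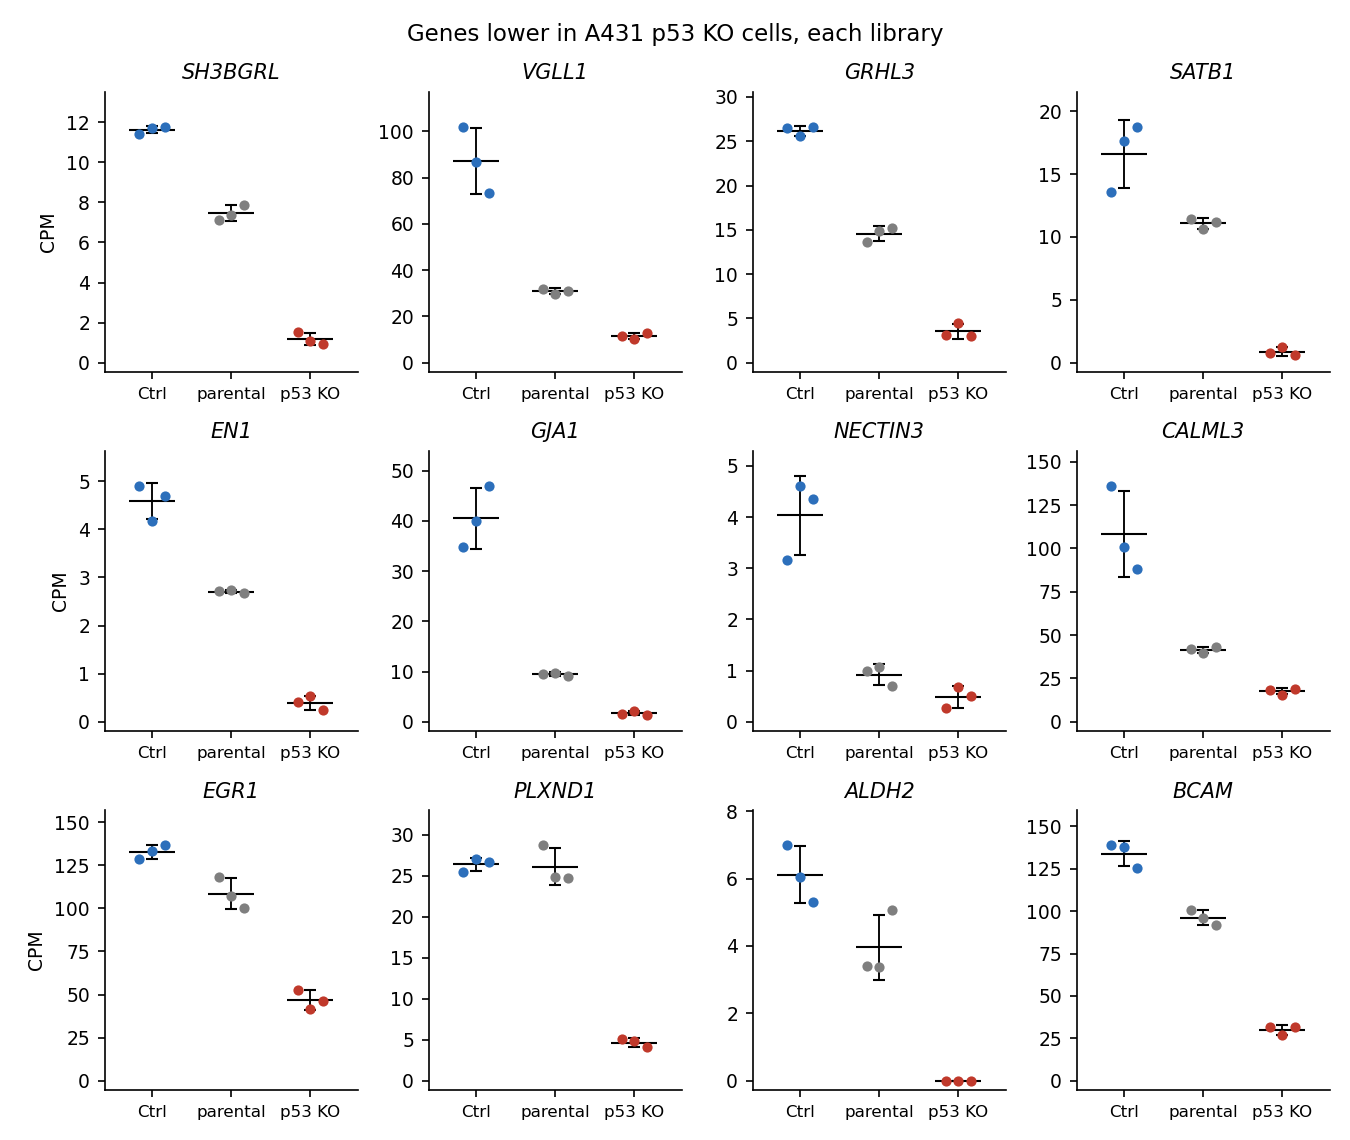
CPM (y axis) of 12 genes lower in p53 KO cells in each Ctrl (blue), parental (grey) and p53 KO (red) library, with the mean and SD of 3 libraries in black. PLXND1 is at the Ctrl level in parental libraries, SATB1 and SH3BGRL lie between both lines, and ALDH2 has no counts in p53 KO libraries.

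The study followed SH3BGRL in the engulfment of cells by their neighbours, so genes of that process were listed. Among the 4 members of the SH3BGRL family, a small group of thioredoxin-like adaptor proteins, 3 decreased. SH3BGRL had 11.4, 11.7 and 11.7 CPM in Ctrl and 1.54, 1.10 and 0.943 CPM in p53 KO replicates (log2 fold change -3.24), SH3BGR decreased by 1.32 (adjusted p = 1.71e-04). SH3BGRL2 had a log2 fold change of -0.31 with an adjusted p of 0.0281 in edgeR, which was 0.0765 in the fit on the 6 libraries without parental cells and up to 0.0999 with 1 library left out, so its decrease was not stable. Of 48 engulfment and entosis genes, 11 increased (22.9%, and 6 or 7 members without Ctrl replicate 2 or 3 or p53 KO replicate 3) and 9 decreased (18.8%), and SH3BGRL was the only one called. MYL9, a myosin light chain, decreased by 1.22 (adjusted p = 3.07e-05) and SIRPA, the receptor of the don't-eat-me signal CD47, decreased by 0.93. VCL, vinculin, increased by 0.65.
Axon guidance genes, many of which also steer epithelial and endothelial cells, changed in 27 of 41 cases, 13 upwards and 14 downwards. The Slit receptor ROBO1 had 662, 580 and 327 counts in p53 KO, 0 in all Ctrl libraries and 195, 144 and 162 in parental replicates, at least 162-fold higher than in Ctrl cells. SLIT2, a ligand of this receptor, increased by 2.12. The kinase-dead ephrin receptor EPHB6 was at least 121-fold higher, again with parental libraries between, at 3.51 to 5.15 CPM. EPHB6 lies in a window of chromosome 7 with a median of -0.54, in the opposite direction. PLXND1, a semaphorin receptor, decreased from 25.5, 27.0 and 26.6 CPM in Ctrl to 5.03, 4.87 and 4.07 CPM in p53 KO replicates (log2 fold change -2.49, adjusted p = 9.09e-08) with parental libraries at 24.7 to 28.7 CPM. It lies in the window from 120 to 140 Mb of chromosome 3, whose median was -0.52, so its change was larger than that of the window.

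Metabolic groups held few called genes, with the exception of the aldehyde dehydrogenases. Of these 16, 3 were called decreased (18.8%, against 1.11% of all genes) and 1 was called increased (6.25%, against 2.18%). Aldehyde dehydrogenases decreased in 4 of 16 cases and increased in 2 (4 without Ctrl replicate 2), both of which lie in shifted windows. ALDH2, the mitochondrial enzyme of acetaldehyde oxidation, had 137, 172 and 139 counts in Ctrl replicates, 89, 88 and 110 in parental replicates and 0 in all p53 KO libraries, a level at least 50.4-fold lower than that of Ctrl. ALDH3A1 decreased by 1.89 and ALDH1L2 decreased by 1.75. Glycolysis and hypoxia genes increased in 13 of 37 cases (35.1%), with neuronal enolase ENO2 called (2.16), and the carbonic anhydrase CA2 decreased by 1.57. Sterol and fatty acid synthesis increased in 9 of 33 cases (27.3%, and 5 without p53 KO replicate 1 or 2), with HMGCS1, an early enzyme of the sterol pathway, at 1.06.
Of 44 nuclear subunits of oxidative phosphorylation, 0 increased and 5 decreased (11.4%) in edgeR, and 0 increased and 7 decreased in DESeq2. At an unadjusted p under 0.05, 1 was higher and 10 were lower in edgeR, and without Ctrl replicate 2 or 3 the decreased members were 10 or 11, and without p53 KO replicate 2 they were 3. The list had a median log2 fold change of -0.17. Mitochondrially encoded genes had a median of 0.61, and 4 of 15 increased (2 without Ctrl replicate 2 or 3 or p53 KO replicate 1 or 2). MT-RNR1, the small ribosomal RNA, was called, at 845, 982 and 803 CPM in p53 KO and 303, 196 and 280.1 CPM in Ctrl replicates. The libraries were selected for poly(A), and the share of mitochondrial counts differed between the lines, as given above, and its part in these values was not tested.
Ribosomal protein genes had 2 of 55 members increased (3.64%) and 2 decreased, and the proteasome 6 of 34 (17.6%) and 2. These counts of increased members depended on single libraries. Without Ctrl replicate 1 they were 15 and 11, the ribosomal count was 1 without Ctrl replicate 2 or 3 or p53 KO replicate 3, and the proteasome count was 2 or 3 without any 1 p53 KO library. Cell cycle and replication genes increased in 13 of 51 cases (25.5%, and 8 without p53 KO replicate 2 or parental replicate 2 or 3) and decreased in 8 (15.7%). The kinase CDK6 increased by 1.13, and TFDP2, a partner of E2F factors on chromosome 3, was the only call (-1.96, in a window with a median of -0.37). In the BCL2, caspase and death receptor group, 9 of 33 increased (27.3%) and 4 decreased, with BIRC3, an inhibitor of apoptosis, at 1.34. Heat shock and unfolded protein genes increased in 9 of 38 cases (23.7%) and decreased in 7 (18.4%). HSPB1, the small heat shock protein HSP27, had 231, 219.8 and 278 CPM in p53 KO and 105, 74.3 and 61.2 CPM in Ctrl replicates, in a shifted window of chromosome 7 (median 0.37), and the unfolded protein response gene DNAJB9 decreased by 0.91. NRF2 and glutathione genes decreased in 7 of 34 cases (20.6%), among them the aldo-keto reductases AKR1B10 (-1.71) and AKR1C3 (-1.28), which share sequence with other family members.
The remaining lists held few called genes. TEAD and YAP-TAZ genes increased in 4 of 26 cases (2 without p53 KO replicate 2) and decreased in 7 (15 without Ctrl replicate 1), and laminins and integrins increased in 4 of 25 and decreased in 5 (2 or 3 without a p53 KO library). Connexins and pannexins increased in 2 of 10 cases and decreased in 3, and collagen modifying enzymes in 6 of 16 and 2. S100 proteins increased in 2 of 11 cases (5 without Ctrl replicate 1 and 1 without any other 1 library) and decreased in 1 (2 without Ctrl replicate 2 or 3). The 4 metallothioneins tested did not pass, and 2 did without Ctrl replicate 1.

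Genes with the largest changes included some of no list. AC079466.1, a long non-coding RNA on chromosome 19 of GRCh38 (28606688 to 28615229), had 250.2, 239.6 and 197 CPM in p53 KO and 0.153, 0.141 and 0.267 CPM in Ctrl replicates, with parental libraries at 15.4 to 17.7 CPM. Its log2 fold change was 10.21 (SE 0.19, adjusted p = 2.41e-10), the largest among genes that exceeded 3 counts in 1 or more libraries of both lines. It overlaps another long non-coding RNA, and whether reads were counted by strand is not stated, so the share of reads that is its own is uncertain. The calcium-binding protein CALB1 followed MMP2 with 17.9, 15.2 and 13.2 CPM in p53 KO and 0.0510, 0.105 and 0.267 CPM in Ctrl replicates. NRIP3, LIMCH1, an activator of non-muscle myosin, NGEF, a guanine nucleotide exchange factor, and the pseudokinase TRIB2 had log2 fold changes of 6.30, 5.76, 4.92 and 4.64. AUTS2, PLCB4 and ABCC9, at 3 or fewer counts in every Ctrl library, were at least 52.0-fold, 36.7-fold and 36.5-fold higher. AUTS2 lies in a shifted window of chromosome 7 (median 0.37).
Among decreased genes, ANK2, an ankyrin that anchors membrane proteins, had 1.27, 2.56 and 4.003 CPM in Ctrl and 0.0671, 0.0380 and 0.198 CPM in p53 KO replicates (log2 fold change -4.78). The AP-1 factor BATF decreased by 4.56 and MANSC1 decreased by 3.64. RARRES1, a retinoic acid-responsive gene, had 244, 268 and 252 counts in Ctrl replicates and 0 in all p53 KO libraries, at least 86.5-fold lower. It lies in a shifted window of chromosome 3 (median -0.37). The zinc finger gene ZNF813 was at least 24.6-fold lower. BCAM, a laminin receptor, had 139, 138 and 125 CPM in Ctrl and 31.5, 26.8 and 31.4 CPM in p53 KO replicates. In all, 71 called genes had 3 or fewer counts in every Ctrl library and 30 in every p53 KO library.

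Changes were also related to the position of genes on the chromosomes. In 148 windows of 20 Mb with at least 20 genes, 10427 genes in all, the median change between p53 KO and Ctrl (log2) was above 0.2 in 13 windows and below -0.2 in 14, on 8 chromosomes. The highest was 0.84 from 40 to 60 Mb of chromosome X, where the median was 0.17 in p53 KO and -0.59 in Ctrl cells, each against parental cells. Windows from 40 to 140 Mb of chromosome 10 had medians from 0.47 to 0.58, and those from 100 to 200 Mb of chromosome 3 from -0.52 to -0.37. The lowest, -0.54, was found from 140 to 160 Mb of chromosome 7. Of the genes tested in higher windows 42 of 1074 were called increased (3.91%) and 5 decreased, and of those in lower windows 17 of 1276 increased and 46 decreased (3.61%). In windows that were not shifted, 247 of 11815 increased (2.09%) and 105 decreased (0.889%). Of the 348 genes tested that lay in no window, 10 increased (2.87%) and 5 decreased (1.44%). Most calls thus lay outside the shifted windows, as did most of the 14513 genes tested. The shares called in windows that were not shifted were below those of all genes tested, 2.18% and 1.11%. DNA was not measured here, and whether copy number differs between both lines was not tested.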

How the data were processed

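Poly(A) RNA of A431 cells was sequenced from 9 strand-specific libraries, 3 per line, as paired reads of 75 bases. The authors aligned reads with STAR 2.5.1b to GRCh38 and counted them per gene with featureCounts against Ensembl release 85, and the deposited values are raw counts. Whether counting used strand is not given in the sources used here. From these counts, edgeR 4.0.16 in R 4.3.3 (TMM, filterByExpr with a minimum of 10 counts, quasi-likelihood fit on all 9 libraries, Benjamini-Hochberg adjustment over 14513 genes) gave the contrast of p53 KO against Ctrl. A call needed an adjusted p of at most 0.05 and a log2 fold change above 1.5 or below -1.5. Totals lay between 19783778 and 29840452 counts per library, and a gene at 3 or fewer counts in every library of a line was given a bound against 3 counts per library. With 3 libraries per group, an exact permutation test of a single gene cannot go below p = 0.1, so only the fit across genes was used. Fits were tested on simulated data. Positions were taken from GENCODE release 44.
Alternatives were DESeq2 1.42.0, other filters, thresholds and normalisations, a replicate block, leaving out each library and leaving out genes of shifted windows, the last chosen after seeing the data. The members and lists were chosen with earlier results of these data known. Some items are not reported here. Named genes were SH3BGRL, VGLL1 and RSAD2, the 10 largest called changes per direction among genes detected in both lines, the 5 most abundant genes per direction at 3 or fewer counts in the other line, the 5 called genes per direction with the highest mean CPM and, per list, called members, the up to 4 largest changes and the 2 of highest level per kilobase. TP63, PLSCR1, FN1, TGFBR3 and SEC14L4, and untested members, were named after their values were seen.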

Additional observations from a re-analysis of the deposited data

How the results depend on the processing

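The count of 477 called genes was 724 without the filter on low counts, 159 with at least 10 counts in every library, 209 with edgeR's test against the fold threshold (glmTreat) and 944 with a log2 fold change of at least 1. The 316 increased calls were 494, 107, 151 and 564 under the same settings. The 161 decreased calls were 52 with at least 10 counts in every library, 58 with glmTreat and 380 with a log2 fold change of at least 1. The stricter count filter removes genes near 0 in 1 line, which are 101 of the calls, and the cause of the rest of its change was not tested. Leaving out 1 library in turn gave 494 to 559 calls, of which 438 to 476 were shared with the 477, and 3100 to 5162 genes at an adjusted p of at most 0.05. Without Ctrl replicate 1 there were 541 calls, 362 increased and 179 decreased. DESeq2 called 480 genes on 9 libraries, edgeR called 454 on the 6 p53 KO and Ctrl libraries, and DESeq2 on those 6 with no filter on low counts called 557.
The labels number the replicates of each line. Deviations of same-numbered libraries from the mean of their line correlated at -0.257, 0.013 and -0.348. Those of differently numbered libraries correlated at -0.222 to 0.395. With only 3 libraries behind each mean, these values cannot decide whether the numbers pair libraries. With a replicate block 475 genes were called and 3406 passed the adjusted p. With 3 libraries per line of single-colony origin, neither differences between colonies nor genes with few counts can be resolved.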
